A study of Mus musculus with 7 samples.

Results

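Crosslink sites in small non-coding RNAs were examined in DENR precipitations from NIH3T3 cells, a mouse fibroblast line, by individual-nucleotide resolution crosslinking and immunoprecipitation (iCLIP). DENR is a translation reinitiation factor that works with MCTS1 on the small ribosomal subunit. In iCLIP, UV light couples a protein to the RNA it touches, and the end of the cDNA made from the recovered RNA gives the crosslinked nucleotide. The members were the crosslink sites that lay on the gene's own strand inside a gene annotated as small nucleolar RNA (snoRNA), small Cajal body RNA (scaRNA), miscellaneous RNA (misc_RNA) or ribozyme in GENCODE M21, outside the mitochondrial chromosome and the pre-rRNA copy on chromosome 17. They made up 187 of the 23288 distinct positions of the 7 site lists, or 241 of 42120 listings when each library is counted, and fell in 28 genes of the 2113 gene symbols in these classes. Of the 187 positions, 126 lay in 23 snoRNA genes, 47 in 4 misc_RNA genes and 14 in 1 ribozyme gene. No position lay in a scaRNA gene.

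All cells were irradiated with UV-C light of 254 nm at 150 mJ/cm2. The group called DENR overexpressing held 3 libraries from cells transiently transfected with a FLAG-Venus-tagged Denr vector, so that tagged and endogenous protein were both present when DENR was precipitated with an anti-DENR antibody. The non-transfected group held 2 libraries from cells in which endogenous DENR was precipitated with the same antibody, and more dishes of cells went into these than into the overexpression experiments. The IgG group held 2 control precipitations. Nothing in the labels says whether replicates came from separate cultures, so the p-values below measure only the spread between these libraries, which may be technical. The lists hold only sites that passed the authors' peak threshold, so the sequencing depth is unknown. The DENR overexpressing lists held 4012, 16137 and 10209 sites, the non-transfected lists 4324 and 7185, and the IgG lists 19 and 234.

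The genes examined belong to families with separate duties in the cell. Box C/D and box H/ACA snoRNAs mostly guide methylation and pseudouridylation of ribosomal RNA (rRNA), a few are needed for cutting of pre-rRNA, and in mammals most are released from introns of host genes. 7SK RNA holds the transcription elongation factor P-TEFb in an inactive particle, Y RNAs bind the Ro60 protein, and RNase MRP is a ribonuclease whose RNA subunit takes part in pre-rRNA processing. Vault RNA is the RNA part of the vault particle.

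The sequences of the RNAs that carried most of the results are shown here. They come from the GENCODE M21 transcripts on build GRCm38 (mm10), read 5′ to 3′ in DNA letters. Capitals mark every nucleotide listed as a crosslink site in at least 1 DENR library. Each run is the whole annotated RNA unless a range is given, and all nucleotide numbers below count from 1 at the annotated 5′ end. Rn7sk and Rmrp are shown from nucleotides 212 to 331 and 180 to 271, which hold all of their sites. The first 4 are the non-snoRNA transcripts, the others are snoRNAs in which sites recurred between libraries or which act in pre-rRNA processing. Sequences of Gm26109, Snord13 and Vaultrc5 are not shown.
Rn7sk (7SK RNA, chr9:78175303-78175633, minus strand): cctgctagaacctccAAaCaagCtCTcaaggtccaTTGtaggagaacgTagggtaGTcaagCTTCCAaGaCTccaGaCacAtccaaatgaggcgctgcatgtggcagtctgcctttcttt
Rny1 (Y1 RNA, chr6:47788069-47788180, minus strand): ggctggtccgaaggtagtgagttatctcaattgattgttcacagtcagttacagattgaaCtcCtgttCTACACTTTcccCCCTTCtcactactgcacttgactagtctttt
Rny3 (Y3 RNA, chr6:47781624-47781725, plus strand): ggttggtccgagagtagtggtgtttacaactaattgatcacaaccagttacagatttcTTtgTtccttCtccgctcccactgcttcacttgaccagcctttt
Rmrp (RNase MRP RNA, chr4:43492788-43493058, minus strand): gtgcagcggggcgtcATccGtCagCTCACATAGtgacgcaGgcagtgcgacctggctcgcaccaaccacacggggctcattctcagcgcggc
Gm23262 (snoRNA in Eif4g2, chr7:111076060-111076227, minus strand): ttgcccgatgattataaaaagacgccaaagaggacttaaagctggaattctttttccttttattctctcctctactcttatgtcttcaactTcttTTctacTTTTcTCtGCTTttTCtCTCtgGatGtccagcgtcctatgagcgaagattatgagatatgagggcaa
Snord80 (snoRNA in Gas5, chr1:161037601-161037681, plus strand): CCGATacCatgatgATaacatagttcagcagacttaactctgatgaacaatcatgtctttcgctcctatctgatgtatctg
Gm25789 (snoRNA in Gas5, chr1:161038308-161038383, plus strand): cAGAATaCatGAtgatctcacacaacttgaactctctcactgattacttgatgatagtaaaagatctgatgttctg
Snord118 (U8, with no host gene, chr11:69073427-69073561, plus strand): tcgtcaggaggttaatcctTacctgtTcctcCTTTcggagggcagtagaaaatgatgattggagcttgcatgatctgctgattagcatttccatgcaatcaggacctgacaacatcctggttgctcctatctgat

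In these sequences the capitals of Rny1 and Gm23262 fell in pyrimidine-rich stretches 3′ of the middle of the RNA. Those of Snord80 and Gm25789 began at the first nucleotides, and those of Rn7sk and Rmrp lay in the 3′ parts of the RNAs. The caller scored each nucleotide together with the sites within 15 nt of it, so that neighbouring sites in 1 RNA are not independent and clustering is favoured by the method.

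Small RNA sites were a minor part of every list and were unevenly spread over the libraries. DENR overexpressing replicates 1, 2 and 3 listed 4, 86 and 84 such sites, or 0.0997%, 0.533% and 0.823% of their lists. Non-transfected replicates 1 and 2 listed 3 and 64, or 0.0694% and 0.891%. Both first replicates, which also had the shortest DENR lists, were low and the other 3 libraries were high, so the groups overlapped fully. The exact Clopper-Pearson 95% intervals, which cover counting error only, ran from 0.0272 to 0.255% and from 0.0143 to 0.203% in the low libraries, and together from 0.426 to 1.14% in the high ones. These intervals treat sites as independent, which neighbouring sites are not, so they may be too narrow. In each low library all small RNA sites lay in 1 gene. The mean share was 0.485% ± 0.364 (SD, n = 3) after overexpression and 0.480% ± 0.581 (SD, n = 2) in non-transfected cells. The difference of 0.00508 percentage points was far within the spread of the libraries of either group (p = 1, adjusted p = 1, two-sided exact permutation test). Its sign changed without overexpressing replicate 2 (-0.0188), overexpressing replicate 3 (-0.164) or non-transfected replicate 1 (-0.406), and under 6 of the other processing choices. With 3 against 2 libraries the smallest p the test allows is 0.1.

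**Figure D1:**
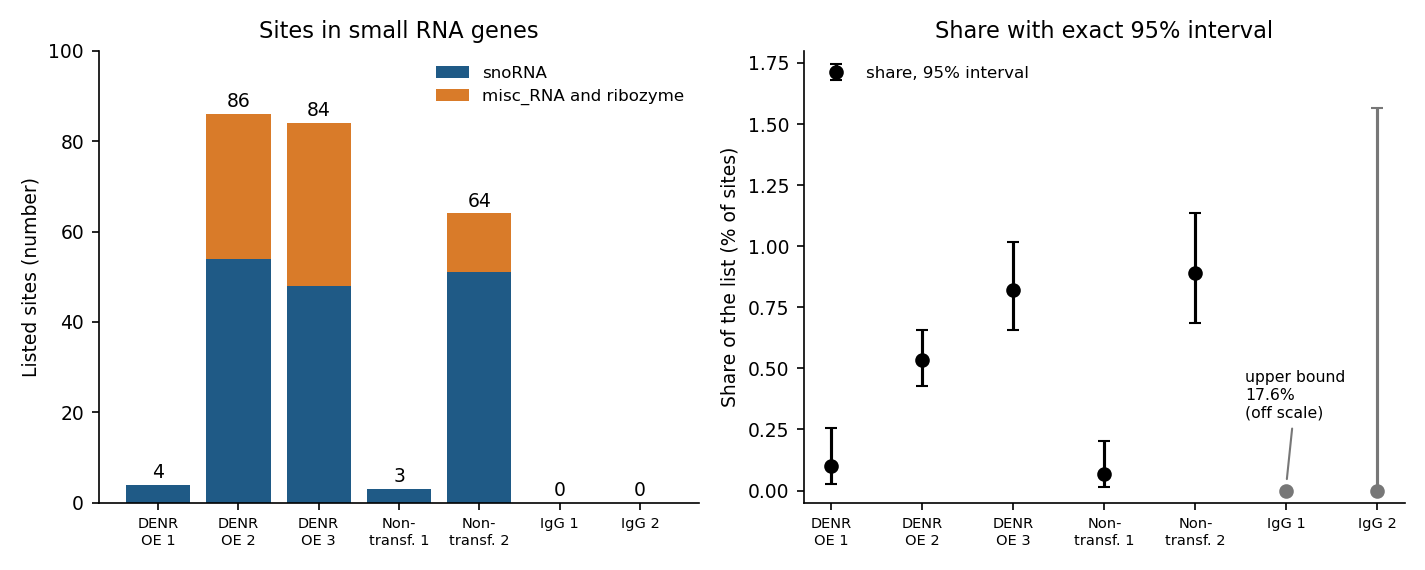
Left, number of listed sites in snoRNA genes (blue) and in misc_RNA and ribozyme genes (orange) in each of the 7 libraries (OE, overexpressing). Right, share of each list in percent, with exact 95% intervals. The 3 DENR libraries with 64 to 86 sites stand apart from those with 3 and 4, and both IgG libraries are at 0.

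No small RNA site was listed in either IgG library. Because those lists are short, the 95% intervals of the IgG shares reached 17.6% and 1.56%, above the shares of all DENR libraries, and a difference was not detectable at this list length. The mean of the 5 DENR libraries was 0.483% ± 0.388 (SD, n = 5) against 0 in 2 of 2 IgG libraries (p = 0.143, adjusted p = 0.571, two-sided exact permutation test). The smallest p that 5 against 2 libraries allow is 0.0476. No site was listed on the opposite strand of a small RNA gene in any library, which is a description, since the members were chosen by strand.

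When the classes were taken separately, snoRNA sites numbered 4, 54 and 48 in the overexpressing libraries and 3 and 51 in the non-transfected ones. The mean snoRNA share was 0.302% ± 0.187 (SD, n = 3) against 0.390% ± 0.453 (SD, n = 2). The difference was -0.0881 percentage points, which lay within that spread (p = 0.9, adjusted p = 1, exact permutation test). This difference was 0.0128 without overexpressing replicate 1 and 0.232 without non-transfected replicate 2. Sites in misc_RNA and ribozyme genes numbered 0, 32 and 36 after overexpression and 0 and 13 in non-transfected cells. Their mean share was 0.184% ± 0.177 (SD, n = 3) against 0.0905% ± 0.128 (SD, n = 2). The difference of 0.0932 percentage points was also within the spread (p = 0.5, adjusted p = 1, exact permutation test). Both first replicates listed only snoRNA sites.

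Relative to sites in exons of messenger RNAs, small RNA sites were again highest in non-transfected replicate 2. There were 3.17, 5.62 and 7.51 small RNA sites per 100 mRNA exonic sites in the overexpressing libraries and 1.56 and 14.9 in the non-transfected ones. Among sites outside rRNA loci, the mitochondrial chromosome and 66 windows of 2000 nt that held at least 10 sites in each DENR library, small RNAs took 0.585%, 0.951%, 1.87%, 0.221% and 2.74% in the same order. None of the members lay in such a window. Scores, the heights given to each site by the peak caller, were low: the median member score was 1.5, 2, 1, 1 and 1 in these 5 libraries and the top one was 3, 10, 7, 3 and 10. The medians of other sites outside rRNA loci, the mitochondrial chromosome and dense windows were 1, 2, 2, 2 and 2.

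Recurrence between libraries was counted for positions and for genes, as a description without a test. Of the 187 positions, 46 (24.6%) were listed in at least 2 DENR libraries, beside 34.6% of all positions and 14.2% of positions outside rRNA loci, the mitochondrial chromosome and dense windows. The count was 28 of 126 (22.2%) for snoRNAs, 17 of 47 (36.2%) for misc_RNAs and 1 of 14 (7.14%) for Rmrp. A total of 38 positions were listed in 2 libraries and 8 in 3, and 141 in 1 only. Of the 28 genes, 13 (46.4%) had a site in at least 2 DENR libraries, beside 26.9% of all genes with a site outside the same excluded regions. These counts rest on the 3 libraries with many sites: 19, 23 and 21 recurrent positions were left without overexpressing replicate 2, overexpressing replicate 3 and non-transfected replicate 2, and recurrent genes fell to 6 without overexpressing replicate 2 and to 8 without overexpressing replicate 3. At a minimum score of 10 no recurrent gene or position was left.

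Overexpressing replicates 2 and 3 shared 19 small RNA positions, which is 22.1% and 22.6% of their members. Overexpressing replicate 2 and non-transfected replicate 2 shared 20 (23.3% and 31.3%), and overexpressing replicate 3 and non-transfected replicate 2 shared 18 (21.4% and 28.1%). With a tolerance of 5 nt these shares rose to 51.2% and 54.8%, 38.4% and 57.8%, and 33.3% and 54.7%. Many sites thus lay beside, rather than on, a site of another library. The caller favours clustered sites, which makes matches within 5 nt more likely, and no background at this tolerance was computed. Of the 28 genes, 9 had sites in both groups, 14 only in overexpressing libraries and 5 only in non-transfected libraries. The lists of the overexpressing group are longer in sum, and the difference between these counts was not tested. The same split over all genes with a site and the pairwise shares over all positions were not computed. These counts thus do not show whether the split or the overlap is particular to small RNAs.

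**Figure D2:**
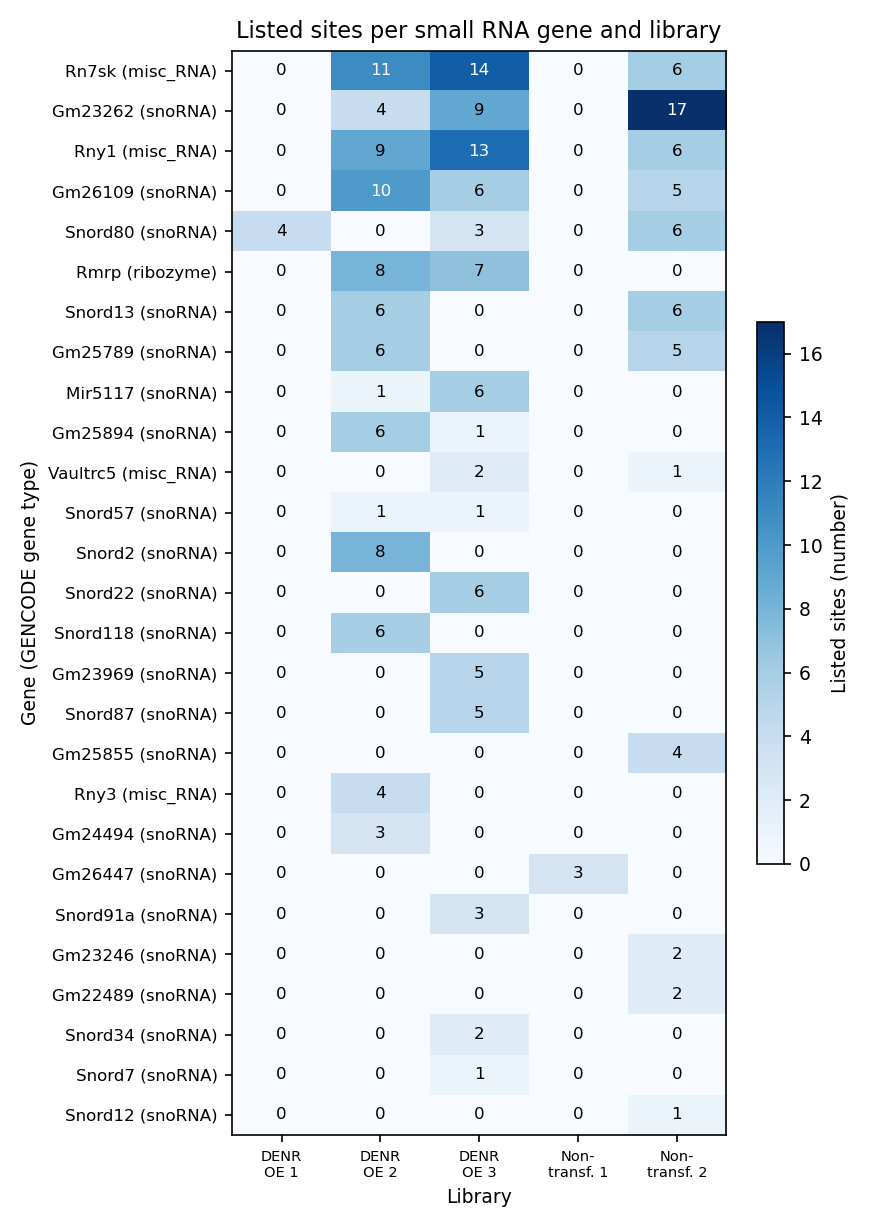
Number of listed sites (cell value and shade) in 27 of the 28 small RNA genes (rows, with GENCODE gene type) in the 5 DENR libraries (columns; OE, overexpressing). Rn7sk, Gm23262, Rny1 and Gm26109 have sites in overexpressing replicates 2 and 3 and in non-transfected replicate 2, and the first replicates hold only Snord80 and Gm26447.

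Among the RNAs that are not snoRNAs, 7SK and Y RNAs carried most of the sites. Rn7sk was listed at 0, 11 and 14 sites in the overexpressing libraries and at 0 and 6 in the non-transfected ones, with summed scores of 20, 22 and 8 in the 3 libraries that had any. Its 24 distinct positions, 7.25 per 100 nt, all lay between nucleotides 227 and 292 of 331, and 7 of them were shared. Within that stretch the libraries differed: all non-transfected sites lay between nucleotides 227 and 237, while the overexpressing sites ran from 234 to 292 and had their top score of 6 at G287, in replicate 2 alone.

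Rny1 was listed at 0, 9 and 13 sites after overexpression and at 0 and 6 in non-transfected cells, with summed scores of 18, 22 and 12. Its 17 positions, 15.2 per 100 nt, spanned nucleotides 61 to 86 of 112, and 9 were shared. C74 was listed in 3 libraries, with scores of 3, 1 and 4, and A73 in the same 3 with scores of 2, 1 and 3. The neighbouring U76 had the top score of the RNA, 6 in overexpressing replicate 3 and 3 in replicate 2, but was not listed in non-transfected cells. Y1 has 15 related genes in the annotation, of at most 92.7% identity, and the only misc_RNA genes with a listed site were Rn7sk, Rny1, Rny3 and Vaultrc5. Rny3 had 4 sites, all of score 1 and all in overexpressing replicate 2, between nucleotides 59 and 69 of 102. Positions in the 2 Y RNAs thus lay at like distances from the 5′ end. All 4 of Rny3 and 88.2% of those in Rny1 were pyrimidines. The stretches that these positions span were themselves 90.9% pyrimidine in Rny3 and 88.5% in Rny1.

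The RNA of RNase MRP was listed only after overexpression. Rmrp had 0, 8 and 7 sites in the overexpressing libraries and none in the non-transfected ones, with summed scores of 18 and 18. The 14 positions covered nucleotides 195 to 220 of 271, and only C208 was shared, with scores of 5 and 3. The annotation also holds Rmrp as a long non-coding RNA at the same place, and those sites were counted here once. With 2 non-transfected libraries, one of them nearly without small RNA sites, the absence there was not tested. Vaultrc5, the vault RNA, had 2 sites in overexpressing replicate 3 and 1 in non-transfected replicate 2, at nucleotides 42 and 44 of 143.

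Several well-known RNAs of these classes had no listed site. None of the 3 genes for 7SL RNA, the RNA of the signal recognition particle, none of the 4 genes for RNase P RNA, and not Terc, the telomerase RNA, held one. 7SL has near-identical gene copies and the handling of reads that align to several places is not given in the sources used here. Terc and Rpph1, a gene for RNase P RNA, have no near-identical other gene. Because only sites past the authors' threshold are listed, the lists do not show whether any of these RNAs was without crosslinks or without listed positions.

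**Figure D3:**
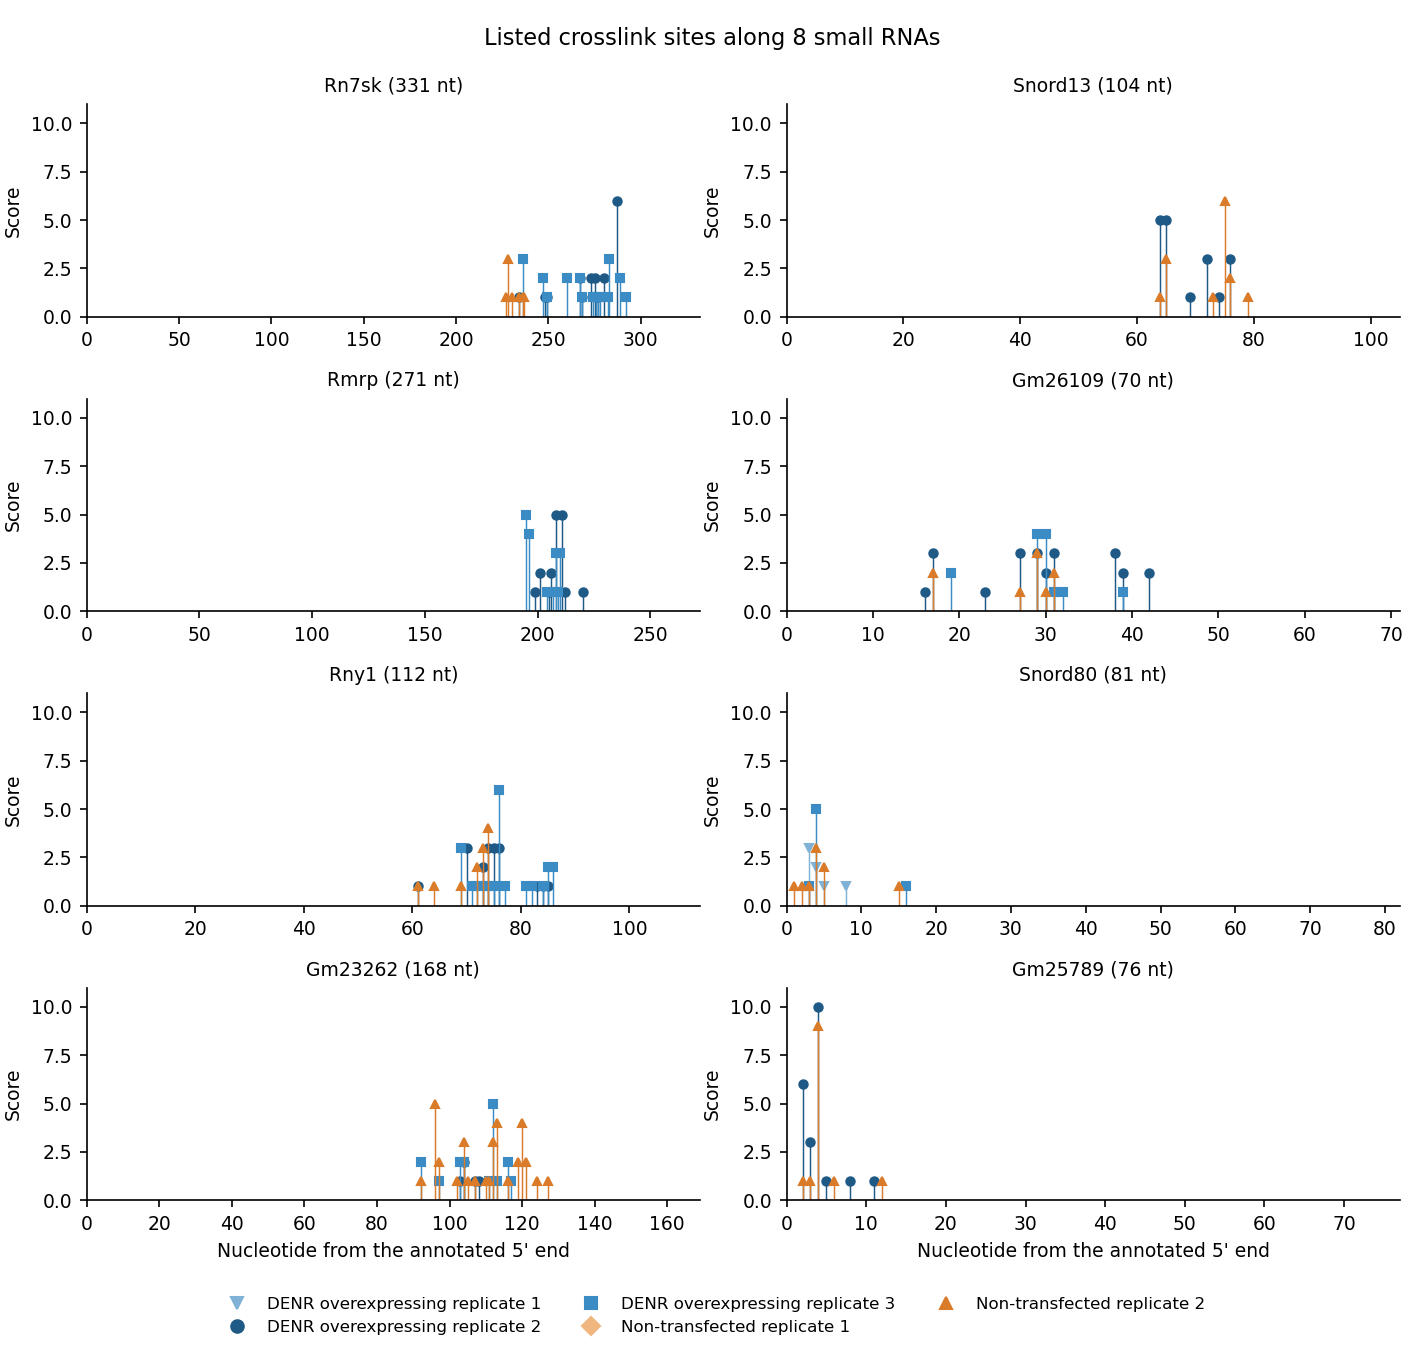
Score of each listed site (vertical axis, height given by the peak caller) against its nucleotide from the annotated 5′ end (horizontal axis, full RNA length) in 8 small RNAs, with 1 symbol per DENR library. Non-transfected replicate 1 has no site in them. Sites lie in 1 stretch of each RNA, at nucleotides 227 to 292 in Rn7sk and 1 to 16 in Snord80, and the tallest is 10 in Gm25789.

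Among snoRNAs, Gm23262, within the translation factor gene Eif4g2, had the most listed sites. It was listed at 0, 4 and 9 sites in the overexpressing libraries and at 0 and 17 in the non-transfected ones, with summed scores of 5, 17 and 34. Non-transfected replicate 2 had the most sites in it, and both first replicates had none. Its 20 positions, 11.9 per 100 nt, lay between nucleotides 92 and 127 of 168 and 9 were shared. U104 was listed in 3 libraries, with scores of 2, 2 and 3. Pyrimidines made up 85.0% of the positions, 83.3% of the stretch they span and 60.1% of the whole RNA.

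Gm26109, a snoRNA of 70 nt in the gene of the mitochondrial chaperone Hspa9, was listed at 0, 10 and 6 sites after overexpression and at 0 and 5 in non-transfected cells, with summed scores of 23, 13 and 9. Its 12 positions gave the highest density of the 28 genes, 17.1 per 100 nt, and 6 were shared. Nucleotides 29, 30 and 31 were each listed in 3 libraries. At nucleotide 29 the scores were 3, 4 and 3, at nucleotide 30 they were 2, 4 and 1, and at nucleotide 31 they were 3, 1 and 2. No other run of 3 adjacent nucleotides was listed in 3 libraries each.

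Gas5, a non-coding gene that carries many snoRNAs in its introns, held 4 of the snoRNAs, with 25 positions. Snord80 was listed at 4, 0 and 3 sites after overexpression and at 0 and 6 in non-transfected cells, with summed scores of 7, 7 and 9, and was the only small RNA listed in overexpressing replicate 1. It is annotated in 2 overlapping entries, whose sites were counted once. Its A4 had scores of 2, 5 and 3 and its G3 had scores of 3, 1 and 1 in overexpressing replicates 1 and 3 and non-transfected replicate 2. Overexpressing replicate 2, the longest list, had no site in it. Gm25789 had 6 sites in overexpressing replicate 2 and 5 in non-transfected replicate 2 and none elsewhere, and its A4 had scores of 10 and 9 there. Another Gas5 snoRNA, annotated under the symbol Mir5117 but as a snoRNA, had 1 and 6 sites in overexpressing replicates 2 and 3 with none shared. Its flanks of 100 nt held 26 listings, in overexpressing replicate 2 and non-transfected replicate 1. The site of overexpressing replicate 2 thus cannot be told apart from Gas5 host sites. Gm22489 had 2 sites in non-transfected replicate 2.

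Snhg1, another snoRNA host gene, held 4 snoRNAs with 18 positions. Of these Gm25894 had 6 and 1 sites in overexpressing replicates 2 and 3, Snord22 had 6 in overexpressing replicate 3, and Gm25855 and Gm23246 had 4 and 2 in non-transfected replicate 2. Snord2, in Eif4a2, had 8 sites in overexpressing replicate 2 only, at nucleotides 2 to 17 of 69 and with a summed score of 23, of which A2 gave 10. Snord57, in Nop56, a gene for a core protein of box C/D particles, had 1 site in each of overexpressing replicates 2 and 3.

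A set list of snoRNAs, most of which act in pre-rRNA processing, was examined as a group. Snord13, U13, which pairs with 18S rRNA, was listed at 6 sites in each of overexpressing replicate 2 and non-transfected replicate 2, with summed scores of 18 and 14, and at none in the other 3 DENR libraries. Its 9 positions lay between nucleotides 64 and 79 of 104. Nucleotide 65 had scores of 5 and 3, and nucleotide 75 had a score of 6 in non-transfected replicate 2 alone. Snord118, U8, needed for maturation of the large-subunit rRNAs, had 6 sites in overexpressing replicate 2 only, between nucleotides 20 and 35 of 135. All were pyrimidines, as were 87.5% of the nucleotides in that stretch. Another gene is near-identical to Snord118, so its reads could be split. Snord22, U22, needed for 18S rRNA maturation, had 6 sites in overexpressing replicate 3 only, with a top score of 7 at U37. No site lay inside any of the 10 entries for U3, the 4 for U14 (Snord14) or the 2 for Snora73. Rnu3b1, a U3 gene, has 11 near-identical other genes, and Snora73a and Snora73b have 1 each. For these, the lists do not tell a lack of crosslinks from a lack of listed positions.

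By symbol, 11 of the 97 Snord genes held 51 positions. None of the 40 symbols of the Snora form, which is used for box H/ACA snoRNAs, held any. Of 1339 snoRNA symbols of other form, mostly predicted genes without a family name, 12 held 75 positions. The symbols of these 12 do not give their box class, so the counts do not show that box H/ACA snoRNAs were without sites. None of 17 Snord115 and Snord116 entries, which are brain-expressed, had a site. A box C motif (TGATGA, on the RNA strand, first 30 nt) was found in 10 of the 23 snoRNAs with sites (43.5%) and in 332 of all 1507 snoRNA entries (22.0%). A box D motif (CTGA, last 30 nt) was found in 91.3% and 60.3%, and both motifs in 43.5% and 21%. Gm23262 and Gm26447 had neither motif. Of the 48 positions in the 10 snoRNAs with box C, 17 lay 5′ of the motif, 5 inside it, 16 within 20 nt after it and 10 farther on. A match describes these letters only.

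Of the 23 snoRNAs, 21 lay in a host gene. Hosts of the Snhg type including Gas5 held 9 of them with 48 positions, and the translation factor genes Eif4g2 and Eif4a2 held 3 with 31 positions. Gm23262 in Eif4g2 alone gave 20 of these 31. Ribosomal protein genes held 3 snoRNAs with 10 positions, and the remaining hosts held 6 with 22. The share of all annotated snoRNAs in each type of host was not counted, so these counts do not show a preference for any type. Of 111 positions in these snoRNAs, 80 also fell in an exon of some transcript model of the host and none in an exon of a protein-coding model. Sites in host RNA and in the snoRNA can be told apart only by position. In the 100-nt flanks of the 28 small RNA genes, overexpressing replicate 2 listed 48 sites, beside 86 members. Overexpressing replicates 1 and 3 listed 0 and 1 there, and non-transfected replicates 1 and 2 listed 1 and 0. Snord80 and Gm25789 had sites in non-transfected replicate 2 while Gas5 had none outside its snoRNAs in that library, and 56 of the Gas5 sites outside snoRNAs were in overexpressing replicate 2. Snhg1 had 25 and 12 sites outside its snoRNAs in overexpressing replicates 2 and 3. Rpl7a, host of Gm23969, had 3, 7 and 7 after overexpression and 0 and 8 in non-transfected cells.

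Within the RNAs, sites in snoRNAs lay towards the 5′ end and sites in the other RNAs towards the 3′ end, although no RNA had sites at its very 3′ end. Each RNA was divided into 3 equal parts. In snoRNAs, 62 of 126 positions (49.2%) were in the 5′ part, 50 (39.7%) in the middle and 14 (11.1%) in the 3′ part. In misc_RNA and ribozyme genes the counts were 2 (3.28%), 12 (19.7%) and 47 (77.0%) of 61, a pattern set by Rn7sk, Rny1 and Rmrp with 24, 17 and 14 of these. Of the snoRNA positions, 30 fell in the first 15 nt and none in the last 15 nt. The lists give no fragment lengths, so whether a site in the last 15 nt could have been listed was not tested. In the median gene the sites spanned 13.5 nt, or 12.6% of the RNA, with a range of 1 to 66 nt.

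The bases at the listed positions were compared with those of the 28 genes. U made up 38.5% of the 187 listed nucleotides and 28.2% of the 3045 nucleotides of the genes, and G made up 16.6% and 23.4%. The nucleotide 3′ of the position was U in 45.5% and G in 5.35% of cases. In positions listed in at least 2 libraries these were 47.8% and 2.17%. Per library, G was at the listed position in 19.8%, 9.52% and 15.6% of sites in overexpressing replicates 2 and 3 and non-transfected replicate 2. These shares are descriptions, since many positions share an RNA, and the RNAs differed. Pyrimidines made up 12.5% of the positions of Snord2 (44.9% of that RNA), 14.3% in Mir5117 (40.5%) and 25% in Gm25789 (51.3%), against 66.7% in Rn7sk (52.3%). In the stretches that these positions span, the pyrimidine shares were 25%, 29.2%, 27.3% and 42.4% in the same order.

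**Figure D4:**
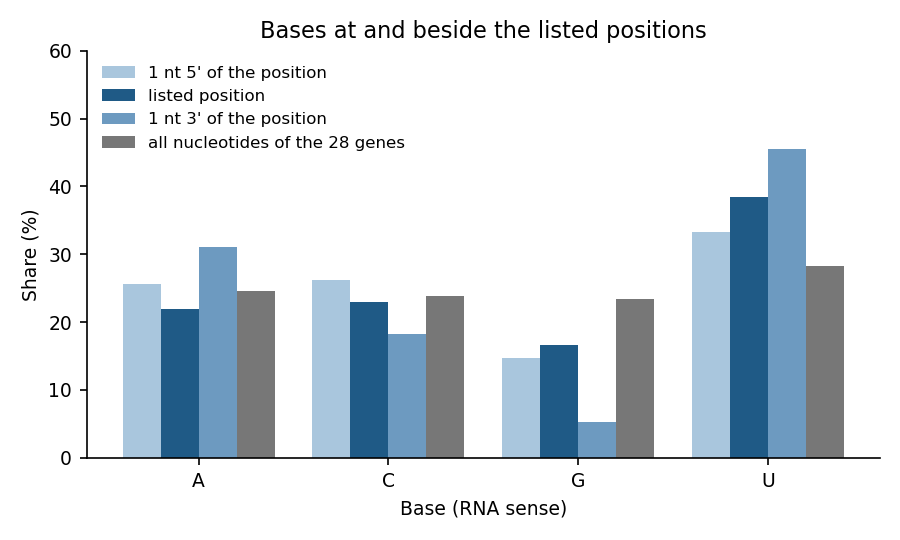
Share in percent of each base (RNA sense) at the 187 listed positions, 1 nt 5′ and 1 nt 3′ of them, and among all nucleotides of the 28 genes. U is 38.5% at the position and 45.5% on its 3′ side, against 28.2% in the genes, and G is 5.35% on the 3′ side.

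Positions were also set against the minimum free energy fold predicted by RNAfold for each RNA without protein. Over all RNAs, 45.5% of the positions and 40.0% of the nucleotides were predicted to be unpaired. In Rny1, 14 of 17 positions (82.4%) were unpaired, beside 39.3% of its nucleotides. In Rn7sk the order was opposite, with 25% of the positions and 39.0% of the nucleotides. The share was 46.8% of positions against 41.1% of nucleotides in snoRNAs, and 42.6% against 37.6% in the other RNAs. Predictions for RNAs of this length are uncertain and the structure in cells was not measured.

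Sites were dense just 5′ of the annotated genes, which the membership rule does not count. This comparison was chosen after the positions had been seen. In the 5 nt upstream of the 5′ ends of all 2142 entries, 48 positions were listed in DENR libraries, as 2, 22 and 16 listings after overexpression and 2 and 16 in non-transfected cells. In the 5 nt downstream of the 3′ ends there were 2. Upstream, 41 of the 48 lay at 1 to 3 nt from the end (15, 15 and 11 at 1, 2 and 3 nt), and 13 further positions lay at 6 to 10 nt and 14 at 11 to 20 nt. None was listed in IgG. By the convention of iCount, which could not be checked on the lists, a cDNA is given the nucleotide before its first base, so a cDNA that runs to the annotated start of an RNA is listed 1 nt upstream of the gene. Crosslinks near the end and cDNAs that reached the end cannot be told apart in these lists.

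**Figure D5:**
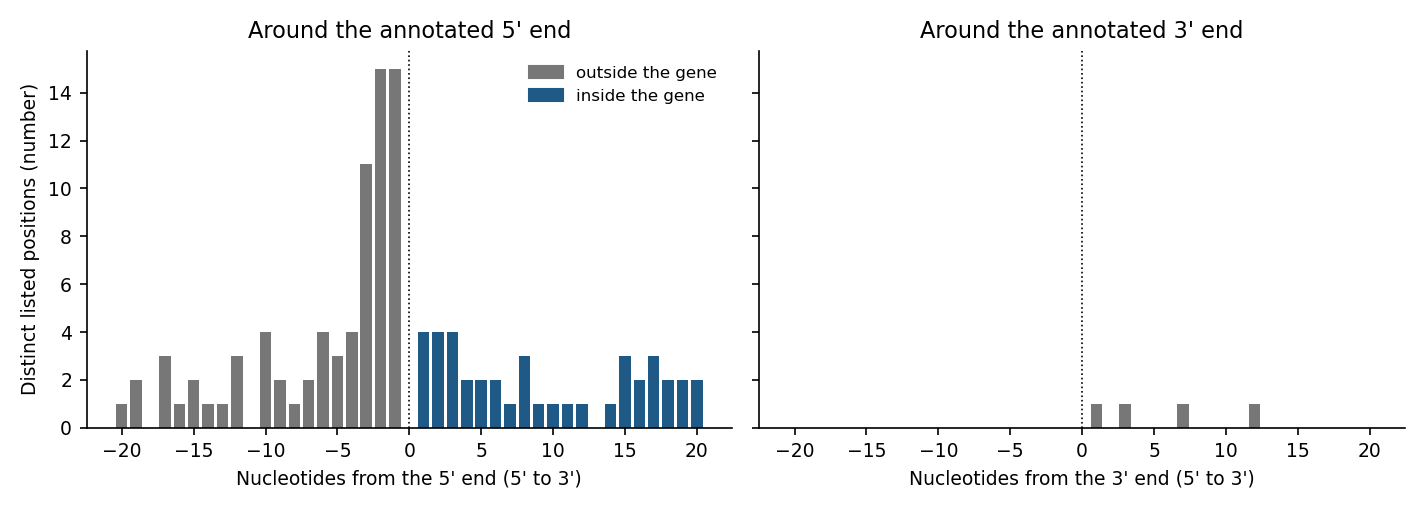
Number of distinct positions listed in DENR libraries at each distance in nucleotides from the annotated 5′ end (left) and 3′ end (right) of small RNA genes, outside (grey) and inside (blue) the genes. The highest bars, 15 and 15 positions, are at 1 and 2 nt upstream of the 5′ end, and hardly any position lies near the 3′ end.

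The upstream positions belonged to 25 genes, 24 of them snoRNAs, and 21 of these genes had no site inside. Snord14e, a U14 copy, had the strongest: the nucleotide next to its 5′ end had scores of 16 and 19 in overexpressing replicates 2 and 3 and 7 in non-transfected replicate 2, and 19 was above the top score of any member. Upstream of Snord104, the nucleotide at 4 nt had scores of 1, 5 and 10 in overexpressing replicates 1 and 2 and non-transfected replicate 2. Rnu3a, a U3 gene, had scores of 4 and 2 at 1 nt upstream in overexpressing replicate 2 and non-transfected replicate 2, and Rnu73b, a U73 gene of the box C/D class, had 6 and 1 there. Snord65 and Snord118 were the other genes with upstream sites in 2 libraries. Snord14a, Snord14d and the H/ACA genes Snora81 and Snora34 had them in 1. With borders widened by 5 nt, genes with a site in at least 2 DENR libraries rose from 13 to 19 and positions from 46 to 54.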

How the data were processed

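Crosslink sites came from iCLIP of NIH3T3 cells, in 7 lists grouped by sample title. Per the labels and the published methods, the authors removed unique molecular identifiers and PCR duplicates and aligned reads to mm10. The submitters' processing notes name Bowtie2 and the published methods name Bowtie. The authors called sites per library with iCount peaks (100 permutations, a 15-nt flank, FDR 0.05). The deposited values are whole-number scores: the sign is the strand, the size is the site's height, and neither is adjusted for depth. Headers of 6 lists name separate treatment of regions, but the methods name the joint one, and the list of overexpressing replicate 2 has no header. Read depth is unknown, and intervals cover counting error only and treat sites as independent.

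Here sites were joined by strand to GENCODE M21, also on mm10. A 2000-nt window was called dense when every DENR library listed 10 or more sites in it. Group means of shares were compared by two-sided exact permutation tests, over 10 arrangements for overexpressing against non-transfected and 21 for DENR against IgG. The Benjamini-Hochberg adjustment covered 4 tests. Sense and antisense sites were counted without a test. Related genes were found with blastn 2.17.0 and folds with RNAfold 2.7.2, and Python 3.11.15, numpy 2.4.6, pandas 2.3.3, scipy 1.17.1 and matplotlib 3.10.9 were used. The functions were tested on simulated data. Alternatives were minimum scores of 2 and 10, merging within 15 nt, lists of equal length, weighting by score, removal of rRNA loci, the mitochondrial chromosome and dense windows, borders widened by 5 nt, a tolerance of 5 nt, leaving out each library and a replicate block.

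Named were the 7SK, 7SL, Y, MRP and RNase P RNAs and a list of mostly processing snoRNAs (Snord118, Snord13, Snord14, Snord22, Snora73 and U3). Also named were up to 25 genes with a site in at least 2 of the 5 DENR libraries, and the 10 positions listed in most libraries, ranked then by summed score. Other genes were named after their values were seen. For 1 gene and 1 position that this rule names, values are not reported here. The members and lists were chosen with earlier results of these data known.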

Additional observations from a re-analysis of the deposited data

How the results depend on the processing

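Of 79 recomputed values, 57 kept their direction and side of the threshold (for counts of genes and positions, within 1.5 times, and for the sense excess, within 1 SD), 12 changed sign and 10 moved further. The 57 do not measure robustness, because part of that outcome was fixed. For overexpressing against non-transfected the smallest possible p, 0.1, kept every alternative on the same side. For DENR against IgG and the sense excess the sign could not change, since IgG shares and antisense counts were 0. The difference in small RNA share between overexpressing and non-transfected libraries (0.00508) was -0.00632 at a minimum score of 10, -0.166 with sites merged within 15 nt, -0.104 with lists of equal length, -0.00175 when weighted by score and -0.342 without rRNA loci, the mitochondrial chromosome and dense windows. It ranged from -0.406 to 0.416 when single libraries were left out. The snoRNA difference ranged from -0.408 to 0.232 and that of misc_RNA and ribozyme genes from 0.00271 to 0.185, and the latter was -0.0288 with merged sites and had no value at a minimum score of 10, where no such site was left. When single libraries were left out, DENR against IgG (0.483) ranged from 0.381 to 0.587. It was 0.337 at a minimum score of 2, 0.0289 at 10, 0.109 when weighted by score and 1.27 without rRNA loci, the mitochondrial chromosome and dense windows. The excess of sense over antisense sites per DENR library (48.2) was 22.8 at a minimum score of 2, 0.6 at 10 and 9.4 with merged sites, and 38.75 to 59.5 without single libraries. The cause of these shifts was not tested.

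Recurrent positions, 46 in all, numbered 18 at a minimum score of 2, 0 at 10 and 116 within 5 nt, and 19 to 46 when a library was left out. Recurrent genes, 13 in all, numbered 0 at a minimum score of 10 and 6 to 13 when a library was left out.

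In dense windows, libraries of the same replicate number did not deviate alike from their group means (correlations of deviations -0.175 and -0.140 over 66 dense windows, 2 pairs). The 2 correlations are not independent, since deviations of 2 non-transfected libraries mirror each other. The windows held no members, so pairing among members was not tested. Among members both first replicates were low (4 and 3 sites) and both second replicates high (86 and 64). With a replicate block the differences were -0.164 for all small RNAs, -0.172 for snoRNAs, 0.00868 for misc_RNA and ribozyme genes and 0.398 for DENR against IgG. Short IgG lists and unknown depth limit every statement on absence.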
